A study of Mus musculus with 6 samples.

Results

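Cranial bone marrow next to the sagittal suture was compared with cranial bone marrow far from it in 18-month-old mice, cell by cell. The comparison set CBMA_18m, taken from the sagittal suture and the bone bordering it, against CBMD_18m, which held parietal bone away from the sutures. Cells were kept when they had 500 to 5000 detected genes, more than 500 unique molecular identifiers (UMIs, each counted as 1 captured RNA molecule) and less than 25% of UMIs from mitochondrial genes. These limits left 7232 cells near the suture and 6626 far from it, 13858 of the 37576 cells kept in the 6 libraries of the series. The other libraries held the same 2 sites at 2 months (02m) and 12 months (12m). The mice were untreated wild-type C57BL/6, stated to be male, with 6 to 8 in each group, and dura mater and periosteum had been stripped from the bone. The tissue was minced and digested with collagenases and dispase, red blood cells were lysed and dead cells were removed. Whether both sites came from the same mice was not stated.

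The flat bones of the skull meet at sutures, fibrous joints whose mesenchyme holds stem cells for the bone and lies outside the marrow cavity. The marrow inside the bone is filled with blood-forming cells, and its main supporting cells are CXCL12-abundant reticular (CAR) cells, which make the chemokine and the growth factors that keep blood stem cells in place. Marrow near a suture is therefore sampled together with suture fibroblasts, tendon-like cells, vessels and nerves, whereas marrow far from it should hold mostly blood cells with a small number of CAR cells and bone-forming cells.

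Each side was a single library of pooled mice, so no test across mice could be made. Every interval given here is an exact 95% interval on UMIs or cells, which covers counting error only and not the spread between mice. Intervals on UMIs treat each UMI as independent. They thus leave out the spread between cells and are too narrow where 1 cell holds many UMIs. Expression is given as CPM, the UMIs of a gene summed over the cells of a class and scaled to a total of 1000000 UMIs for those cells. A ratio is always CBMA over CBMD. A gene was called higher or lower near the suture when the ratio was at least 1.5-fold either way and the 2 libraries together held at least 50 UMIs. Depth was similar on both sides, with 39719944 UMIs and a median of 3738 per cell near the suture against 33304135 and 3287.5 far from it. The 2 libraries shared 14 cell barcodes, within the 6 to 21 shared by other pairs of libraries. Xist, expressed from the inactive X chromosome of females, stood at 0.252 and 0.360 CPM in the 18-month libraries but at 564 and 596 CPM in the 12-month libraries, although all mice were stated to be male. Values at 12 months are thus given beside those at 18 months only as a description.

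Cells were gated by their own transcripts into neutrophils, monocytes, T cells and stromal cells. Neutrophils, the short-lived phagocytes that fill adult marrow, were cells with at least 2% of UMIs from S100a8 and S100a9. Monocytes had at least 3 UMIs of Ly6c2 and 1 of Ccr2, T cells at least 2 UMIs over Cd3d, Cd3e and Cd3g, and stromal cells at least 20 UMIs over Col1a1, Col1a2 and Cxcl12. Genes outside the gates fitted the labels on both sides. Neutrophils carried Csf3r, the G-CSF receptor, at 1839 and 1835 CPM near and far from the suture. Monocytes carried the coagulation factor gene F13a1 at 2046 and 2024 CPM, and T cells carried the T cell receptor gene Trbc2 at 740.3 and 593.9 CPM. Stromal cells expressed the receptor gene Pdgfrb at 459 and 591 CPM. Marker UMIs of skeletal muscle and of skin epithelium reached 10 in no cell of either library, and those of meninges did so in 2 and 0 cells. Cells inside 2 or more gates numbered 132 and 101, and 1704 and 1601 cells lay in no gate.

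The blood cell classes differed little between the sites, whereas stromal cells were several times more frequent near the suture. Neutrophils made up 56.9% of cells near the suture (4117 cells) and 58.9% far from it (3900), a ratio of 0.967 (0.926 to 1.01). Monocytes made up 12.7% (920) and 13.4% (890), a ratio of 0.947 (0.863 to 1.04). Both intervals held 1. T cells were 5.31% (384) near the suture and 4.29% (284) far from it, a ratio of 1.24 (1.06 to 1.45). Stromal cells were 3.35% (242 cells) against 0.815% (54 cells), a ratio of 4.11 (3.05 to 5.62). At the limit of the stromal gate 15 and 5 cells lay just inside and 38 and 3 just outside. With a limit of 10 UMIs the stromal cells were 280 and 57, a ratio of 4.50 (3.37 to 6.09). The T cell limit was the less sharp one, with 28 and 36 just inside and 166 and 140 just outside. At 2 months the stromal share did not differ beyond counting error, at 52 against 46 cells and a ratio of 1.05 (0.691 to 1.59), and at 12 months it was 15 against 39 cells, a ratio of 0.632 (0.323 to 1.17).

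**Figure D1:**
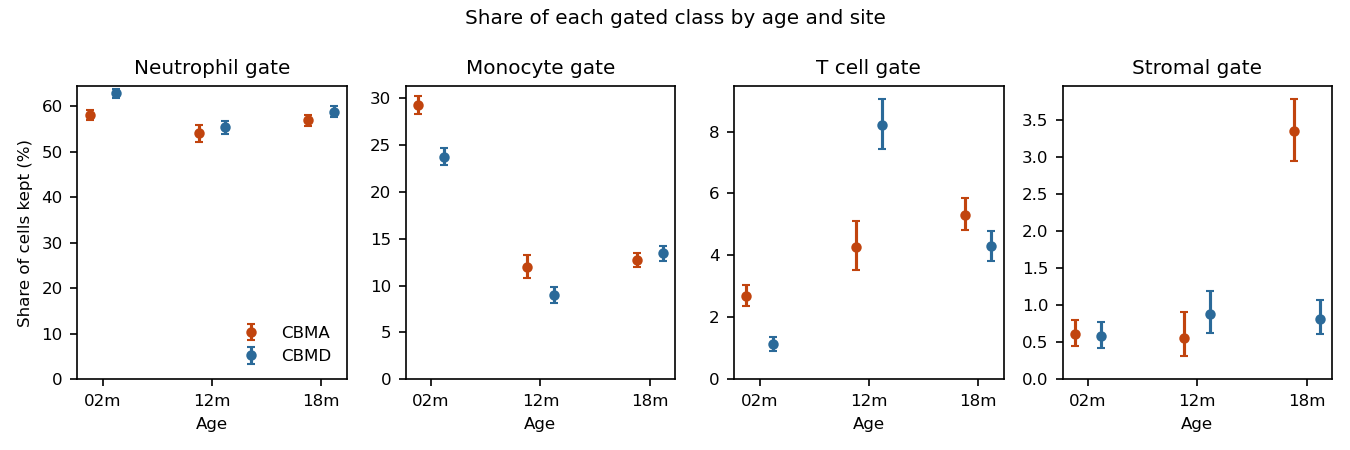
Share of cells kept (%) in each gate by age, for CBMA and CBMD; points are single libraries and bars are exact 95% binomial intervals for counting error. The stromal share near the suture at 18 months, 3.35%, lies above the other 5 libraries, while neutrophil shares at 18 months lie close together at 56.9% and 58.9%.

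The stromal cells of the 2 sites were of different kinds. Each stromal cell was assigned to the highest of 3 mean log expression scores, for CAR genes (Lepr, Adipoq, Ebf3, Kitl, Foxc1, Hp, Lpl, Agt), suture and fibrous genes (Prrx1, Sfrp2, Postn, Tnn, Col3a1, Col12a1, Col14a1, Dpt) and osteoblast genes (Bglap, Bglap2, Ibsp, Alpl, Sp7, Phex, Dmp1). Near the suture 126 cells were led by the suture score, 111 by the CAR score and 5 by the osteoblast score. Far from it the numbers were 1, 46 and 7. Suture-led cells were thus 1.74% of cells near the suture and 0.0151% far from it, a ratio of 115 (20.3 to 4595). CAR-led cells were also more frequent near the suture, at 1.53% against 0.694% and a ratio of 2.21 (1.55 to 3.19). CAR-led cells were 45.9% of stromal cells near the suture and 85.2% far from it. Only 10 and 7 stromal cells lay within 0.25 of the line between their 2 highest scores, so the split rested on few doubtful cells near the suture. The same scores gave 48 suture-led cells against 43 at 2 months, a ratio of 1.04 (0.671 to 1.60), when the distant library held nearly as many as the library with the suture.

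**Figure D2:**
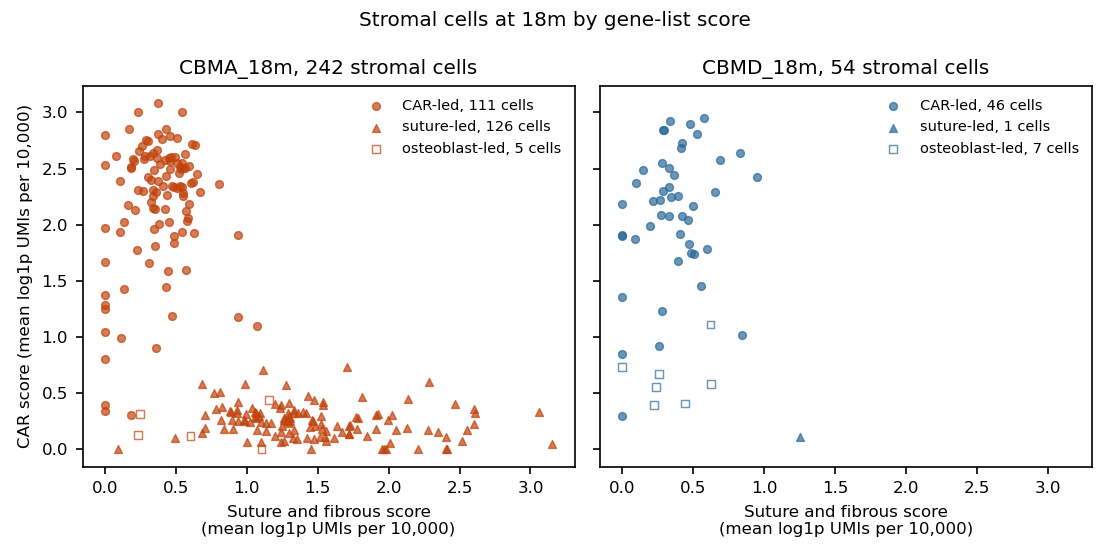
CAR score against suture and fibrous score (mean log1p UMIs per 10,000) for each stromal cell of CBMA_18m and CBMD_18m, with symbols for the score that led. In CBMA_18m 111 CAR-led and 126 suture-led cells form separate clouds, and in CBMD_18m 46 CAR-led cells stand with 1 suture-led cell.

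Among all stromal cells the genes farthest apart were those of fibrous connective tissue. Of 7135 genes with 50 or more UMIs, 20.1% were higher and 11.2% lower near the suture. Sfrp2, which encodes a secreted Wnt modulator of suture mesenchyme, stood at 2781 CPM near the suture and 36.0 CPM far from it, a ratio of 77.2 (46.8 to 138), and was found in 85 against 8 stromal cells. Its gene (ENSMUSG00000027996) lies on chr3:83766321-83774316 in GRCm38. Mfap4, a protein of elastic fibres, had 564 against 2.40 CPM, resting on 1262 UMIs against 1. Tnn, which encodes the bone and tendon matrix protein tenascin-W, had 744 UMIs in 32 cells near the suture and none far from it, at least 46.2-fold higher against a floor of 3 UMIs. Chad, a cartilage and tendon protein, had 636 UMIs in 23 cells against 0, at least 39.5-fold higher. Aspn, a small proteoglycan of the periodontal ligament and tendon, stood at 727 against 14.4 CPM (50.5, 23.1 to 138). The others of the 10 that led this side were Cpxm2, Crispld2, Igfbp6, the imprinted noncoding RNA H19 and the fibril-associated collagen gene Col14a1, each at 282 CPM or more against 12.0 CPM or less.

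Signalling and matrix genes were among those lower near the suture. Wif1, a secreted inhibitor of Wnt ligands on chr10:121033960-121100650, stood at 74.2 CPM near the suture and 403 CPM far from it, a ratio of 0.184 (0.148 to 0.229). Tnc, which encodes tenascin-C, stood at 535 against 2132 CPM (0.251, 0.230 to 0.274). Grem1, a secreted BMP antagonist, stood at 185 against 658 CPM, and Lifr, the receptor subunit for leukaemia inhibitory factor, at 322 against 1109 CPM. Limch1, Id4 and Igfbp3 showed the same order, at 197 against 800, 101 against 399 and 121 against 451 CPM. The endothelial phosphatase gene Ptprb also ranked here at 19.7 against 122 CPM, but its 51 UMIs far from the suture came from 1 cell, and 30 of the 52 UMIs of Proser1 there likewise came from 1 cell.

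**Figure D3:**
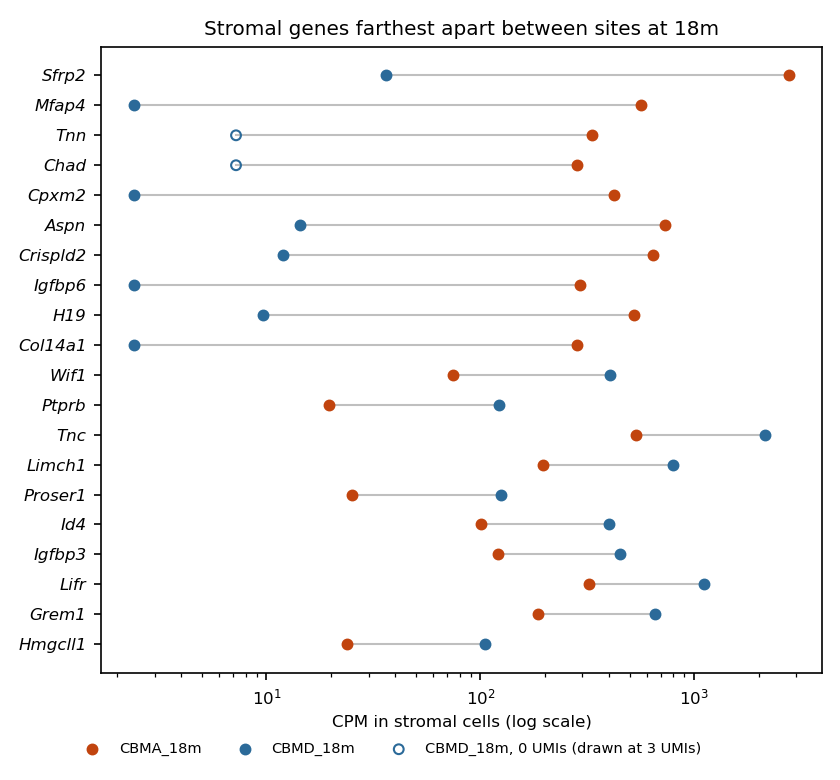
CPM in stromal cells (log scale) of the 10 genes higher and the 10 lower near the suture with counting intervals farthest from 1; each line joins CBMA_18m and CBMD_18m, and open points mark 0 UMIs, drawn at 3 UMIs. Sfrp2 spans 36.0 to 2781 CPM and Tnc 535 to 2132 CPM.

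By gene group, the matrix of fibrous tissue, tendon and cartilage stood higher in stromal cells near the suture. The median log2 ratio of all stromal genes was 0.08. Of 15 measured suture mesenchyme genes, 14 were higher and 0 lower (median 1.56), including the transcription factor gene Twist1, needed for suture patency, at 149 against 50.4 CPM. Of 20 genes of fibrillar collagens and associated matrix, 18 were higher and 1 lower (1.85), with Col3a1, the type III collagen chain, at 2610 against 271 CPM and Sparc, a collagen-binding bone glycoprotein, at 5076 against 1698 CPM. The exception was Tnc. Of 9 small leucine-rich proteoglycans, which set the width of collagen fibrils, 6 were higher and 0 lower (2.12). Dcn stood at 4012 against 922 CPM, Lum at 1649 against 370 CPM and Fmod at 1080 against 154 CPM, while Bgn was not called at 2549 and 3045 CPM. Of 9 tendon and cartilage genes 8 were higher, with a median of 4.61, or 3.25 when genes with 0 UMIs on 1 side were held at their bound. Tnmd, the tendon membrane protein tenomodulin, had 407 UMIs (182 CPM) against 2 UMIs (4.80 CPM), a ratio of 37.9 (10.4 to 314). The exception was Sox9, the cartilage transcription factor, at 88.1 against 192 CPM. In CAR-led cells alone Sox9 was not lower, at 124 against 107 CPM on 112 and 39 UMIs.

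The CAR cell genes showed the opposite order, with 1 higher and 14 lower of 16 (median −1.05). Kitl, the stem cell factor that blood stem cells require, stood at 588 against 1758 CPM, Lepr, the leptin receptor, at 510 against 1020 CPM, and Vcam1, an adhesion molecule, at 762 against 1700 CPM. The gating gene Cxcl12, given as description, stood at 10478 against 24383 CPM, and the gating collagens Col1a1 and Col1a2 at 6148 against 574 and 6501 against 2103 CPM. Lepr, Kitl and the other scoring genes chose the CAR-led cells, so their levels within those cells are not compared between sites.

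Signals that act on bone were divided. Among 10 osteoblast genes 3 were higher, 4 lower (median −0.32). Alpl, the alkaline phosphatase of mineralizing cells, stood at 306 against 158 CPM, whereas Ibsp (bone sialoprotein) stood at 1346 against 2610 CPM and Spp1 (osteopontin) at 1709 against 3755 CPM. Bglap, encoding osteocalcin, was called higher at 57.2 against 7.20 CPM, but 57 of its 128 UMIs near the suture came from 1 cell and it had 3 UMIs far from it. Of 11 secreted BMP, Wnt and hedgehog inhibitors 4 were higher (Sfrp2, Dkk2, Dkk3 and Nog) and 3 lower (Sfrp1, Grem1 and Wif1). Of 10 genes of the insulin-like growth factor axis 4 were higher and 3 lower. Igf1 stood at 418 against 158 CPM (2.64, 2.05 to 3.44) and its binding protein gene Igfbp5 at 8925 against 4260 CPM (2.10, 2.00 to 2.20), whereas Igfbp4 stood at 3428 against 6075 CPM and Pappa, the protease that cleaves IGFBP4, at 514 against 1162 CPM. These sums mix kinds of stromal cell whose shares differ by site. In CAR-led cells alone, Spp1 stood at 2656 against 3549, Igfbp4 at 5645 against 6533, Pappa at 1143 against 1272 and Igf1 at 204 against 178 CPM, all under 1.5-fold. There the osteoblast list had 0 higher and 2 lower of 7, and the insulin-like growth factor axis 2 higher and 1 lower of 9.

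The 126 suture-led cells could be set beside those of the 2-month libraries, as a description on single libraries. Sfrp2 and Col3a1 were among the genes that chose these cells, so no direction is read from their levels. Sfrp2 was at 4773 CPM in CBMA_18m, 4888 CPM in CBMA_02m and 8558 CPM in CBMD_02m, and Col3a1 at 4317, 10733 and 4993 CPM. Sparc, which did not score the cells, was lower in CBMA_18m, at 7261 CPM against 12288 and 10786 CPM. Igfbp5 stood at 10407 CPM in CBMA_18m against 2636 and 2921 CPM in the younger libraries, and Igfbp6 went the other way, at 443 CPM against 972 and 1249 CPM. Tenomodulin, a marker of tendon and ligament cells, was at 314 CPM against 458 and 614 CPM.

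CAR-led cells were present at both sites, which allowed cells led by the same score to be compared. Near the suture 111 such cells carried 902422 UMIs (median 8115 a cell), and far from it 46 cells carried 364912 UMIs (median 7374). Of 4181 genes measured, 12.7% were higher and 5.36% lower, and the median log2 ratio over all of them was 0.07. The genes farthest apart were 2 chemokines that recruit activated T cells through CXCR3 and are induced by interferon gamma. Cxcl9 (ENSMUSG00000029417, chr5:92321347-92328079) stood at 2387 CPM near the suture and 60.3 CPM far from it, a ratio of 39.6 (26.1 to 63.3), and was seen in 35 of 111 against 6 of 46 cells. Its richest cell held 427 of the 2154 UMIs. Cxcl10 stood at 705 against 16.4 CPM, a ratio of 42.9 (19.6 to 117), in 25 against 3 cells, with 225 of its 636 UMIs in 1 cell. At an equal depth of 2000 UMIs a cell, Cxcl9 was detected in 27.4% (19.1 to 36.9) of 106 CAR-led cells near the suture and 6.98% (1.46 to 19.1) of 43 far from it. In neutrophils at the same depth, taken as a measure of free RNA, it was detected in 0.179% and 0.240%. Cxcl10 was detected in 15.1% (8.88 to 23.4) against 0 of 43 cells, a count of 0 whose interval reached 8.22%, and in neutrophils in 1.87% and 2.23%. Without thinning the shares were 31.5% and 13% for Cxcl9 and 22.5% and 6.52% for Cxcl10. At 12 months the order was the other way, as a description on 6 and 24 CAR-led cells. There Cxcl9 had 0 UMIs against 45 and Cxcl10 0 against 41, and the 2 measured interferon-stimulated genes were both lower. At 2 months, with 4 and 2 CAR-led cells, Cxcl9 had 26 UMIs against 0 and Cxcl10 had 0 on both sides.

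A wider set of interferon-stimulated genes stood higher in the CAR-led cells near the suture. Of 25 measured, 18 were higher and 0 lower (median 0.96), and 16 of the 18 had an interval above 1, the exceptions being Irf7 and Zbp1. The genes with the largest ratios after Cxcl10 included interferon-inducible GTPases, which attack the vacuoles of intracellular microbes, and the antiviral genes Rsad2 and Ifit3. Ifi47 stood at 119 against 16.4 CPM (7.21, 3.21 to 20.1) and Igtp at 133 against 24.7 CPM (5.39, 2.75 to 12.1). Rsad2, on 53 against 4 UMIs, and Ifit3, on 46 against 4 UMIs, ranked between Igtp and the GTPase gene Iigp1 by ratio. Iigp1 stood at 1079 against 249 CPM (4.33, 3.49 to 5.43), in 74 of 111 and 27 of 46 cells. Gbp2 and Irgm1 stood at 235 against 57.5 and 103 against 30.1 CPM. Some classical antiviral genes among the 16 rested on 1 cell, with 42 of 53 UMIs of Rsad2 and 49 of 91 UMIs of Ifit1 near the suture each in a single cell. Bst2 at 202 and 167 CPM and Slfn5 at 290 and 280 CPM were not called. Per cell, the interferon list without Cxcl10 made up a median of 19.5 UMIs in 10,000 near the suture and 12.0 far from it. In stromal cells as a whole 14 of 28 were higher and 0 lower.

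**Figure D4:**
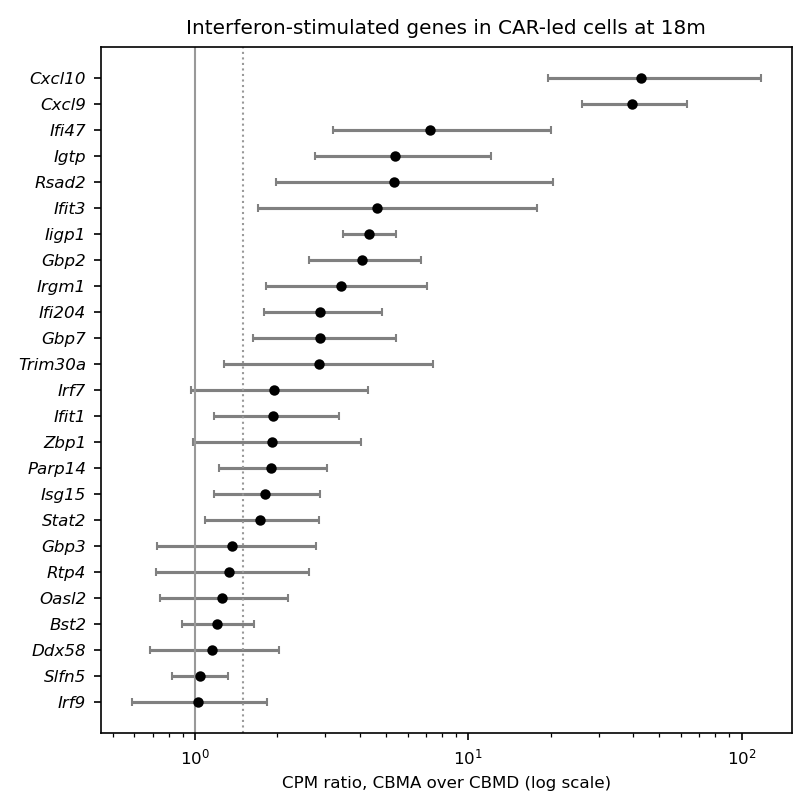
CPM ratio in CAR-led cells at 18 months, CBMA over CBMD (log scale), for measured interferon-stimulated genes and Cxcl9; bars are exact 95% counting intervals, the solid line marks 1 and the dotted line 1.5. The ratios run from Cxcl10 at 42.9 down to Slfn5 and Irf9, whose intervals hold 1.

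Of 19 genes, the 18 called interferon-stimulated genes and Cxcl9, 14 had an entry among the RefSeq promoters of GRCm38.p6. The 250 bases before their transcription start were searched on both strands for GAAA followed after any 2 bases by a second GAAA, the core of the interferon-stimulated response element, and for TTCNNNGAA, the core of the gamma-activated site; the letters of the 2 motifs can overlap. The first was found in 11 of the 14 and the second in 2, against 2.98% and 7.02% of all 32851 promoters. Apart from Cxcl9 these genes came from a fixed list of interferon-stimulated genes, so the shares describe the list and not the difference between sites. Among measured list members that were not called, Bst2, Slfn5 and Gbp3 also hold the first motif, and Irf9, Ddx58 and Oasl2 do not. Whether the motif goes with the site difference was not tested. A match is a description of the letters, not a site shown to be bound. The windows of 5 of these genes are shown because they differ in where the motif lies. They are not the 5 with the largest ratios in CAR-led cells. Ifi47, which followed Cxcl10 and Cxcl9 by ratio, holds neither motif in its window and is not shown. Each runs 5′ to 3′ toward the start, with matches in capitals. Cxcl10 has its match 213 bases before the start, Gbp2 has the motif on the other strand, Igtp holds both motifs side by side, Irgm1 holds 2 overlapping copies and Cxcl9 holds none in this window.
Cxcl10, chr5:92348890-92349139, minus strand: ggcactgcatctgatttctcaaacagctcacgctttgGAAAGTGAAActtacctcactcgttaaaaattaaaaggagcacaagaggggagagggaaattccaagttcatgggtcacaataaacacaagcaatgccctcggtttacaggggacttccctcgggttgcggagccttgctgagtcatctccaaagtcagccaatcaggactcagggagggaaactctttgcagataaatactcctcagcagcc
Gbp2, chr3:142620413-142620662, plus strand: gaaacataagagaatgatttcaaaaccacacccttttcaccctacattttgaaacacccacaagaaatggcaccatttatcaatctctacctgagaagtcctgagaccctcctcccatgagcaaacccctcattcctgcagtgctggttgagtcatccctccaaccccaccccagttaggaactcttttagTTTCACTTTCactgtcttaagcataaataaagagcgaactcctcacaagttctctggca
Igtp, chr11:58199306-58199555, plus strand: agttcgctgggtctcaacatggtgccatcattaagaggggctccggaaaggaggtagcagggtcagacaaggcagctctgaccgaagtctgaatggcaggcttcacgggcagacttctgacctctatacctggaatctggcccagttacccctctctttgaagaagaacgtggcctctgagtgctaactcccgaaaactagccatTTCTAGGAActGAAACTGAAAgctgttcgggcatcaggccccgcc
Irgm1, chr11:48871421-48871670, minus strand: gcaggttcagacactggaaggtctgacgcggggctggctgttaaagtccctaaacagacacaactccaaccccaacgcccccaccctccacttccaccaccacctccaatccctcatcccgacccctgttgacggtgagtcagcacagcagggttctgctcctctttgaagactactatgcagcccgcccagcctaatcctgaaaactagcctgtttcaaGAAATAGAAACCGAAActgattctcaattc
Cxcl9, chr5:92328080-92328329, minus strand: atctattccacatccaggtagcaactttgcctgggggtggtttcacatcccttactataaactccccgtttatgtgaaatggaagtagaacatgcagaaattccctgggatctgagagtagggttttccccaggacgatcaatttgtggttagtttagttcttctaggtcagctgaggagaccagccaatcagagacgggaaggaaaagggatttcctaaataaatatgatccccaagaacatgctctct

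Antigen presentation by MHC class I, which interferon also raises, was partly higher in CAR-led cells near the suture, with 6 of 13 genes higher and 0 lower (median 0.48). Tap1, the peptide transporter, stood at 115 against 54.8 CPM (2.10, 1.29 to 3.58), with Tap2, Psmb9, H2-Q4, H2-Q7 and H2-T23 the others. The abundant light chain gene B2m was close, at 3644 and 3351 CPM. Of 15 secreted inflammatory genes 8 were higher and 1 lower. The monocyte attractants Ccl2 and Ccl7 stood at 199 against 76.7 and 76.5 against 16.4 CPM, and the neutrophil attractant Cxcl2 at 193 against 76.7 CPM, with 57 of its 174 UMIs in 1 cell. Mmp13, a collagenase of bone, was the exception at 459 against 921 CPM. Igfbp5 stood at 7170 against 4006 CPM (1.79, 1.69 to 1.90), so its stromal difference was also present within CAR-led cells. Some transcripts of suture-led cells were higher there too, and others were lower. Igfbp6 had 80 UMIs against 0. Of 7 small proteoglycans 2 were higher, Lum at 810 against 329 and Dcn at 1733 against 995 CPM. The 2 lower were Fmod at 31.0 against 65.8 and Omd at 38.8 against 82.2 CPM. Comp, at 567 CPM in suture-led cells near the suture, was lower in CAR-led cells, at 72.0 against 134 CPM. Igfbp5 stood at 10407 CPM in suture-led cells near the suture, and the part of such transcripts in its CAR-led value was not tested. Tnc at 976 against 2162 CPM (0.452, 0.410 to 0.498), Wif1 at 166 against 406 CPM and Col8a1, a short-chain collagen, at 303 against 795 CPM were lower near the suture. Of the CAR cell genes that neither gated nor scored the cells, Vcam1 stood at 1800 and 1883 CPM and Csf1, the macrophage growth factor, at 562 and 570 CPM, while Angpt1, a ligand of the vessel and stem cell receptor TIE2, stood at 154 against 216 CPM, under the 1.5-fold limit.

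Neutrophil transcripts moved with the CAR-led comparison and depended on a few cells. S100a8 stood at 3023 against 181 CPM (16.7, 13.1 to 21.7), S100a9 at 3843 against 241 CPM, and 8 of 9 measured secondary and tertiary granule genes were higher, with a median of 2.43, or 0.25 with no upper limit on genes. Of the CAR-led cells near the suture 9 also lay in another gate and 18 carried one of the highest doublet scores, against 0 and 3 far from it. With these cells left out, 90 and 43 cells remained and S100a8 stood at 309 against 167 CPM, a ratio of 1.85 (1.39 to 2.50). In the same cells 16 of 23 measured interferon-stimulated genes were higher and 0 lower (median 1.27). Cxcl9 stood at a ratio of 44.2 (29.1 to 70.6), Cxcl10 at 49.6 (22.7 to 136), Iigp1 at 4.80 (3.87 to 6.03) and Tap1 at 2.36 (1.45 to 4.02). Igfbp5 was at 1.85 and Tnc at 0.510 in the same cells.

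Over all cells together, the sites differed mainly in stroma, vessel wall and nerve. Of 16058 genes, 14.1% were higher and 3.38% lower, with a median log2 ratio of 0.07. Sfrp2 led at 160 against 0.480 CPM (333, 205 to 582), in 175 against 9 cells. Myh11, the myosin heavy chain of smooth muscle on chr16:14194535-14291372, stood at 105 against 0.330 CPM (319, 178 to 639), in 75 against 10 cells. Dpt, which encodes the fibroblast matrix protein dermatopontin, had 337 UMIs in 35 cells and none far from the suture, at least 94.2-fold higher. As fewer cells of a kind and less RNA per cell cannot be told apart in such sums, cells with 10 or more marker UMIs were counted. Mural cell markers (Acta2, Rgs5, Myh11) reached this in 64 cells against 0 of 6626, a count of 0 whose exact interval reached 0.0557%. Endothelial markers (Pecam1, Cdh5, Emcn) reached it in 75 against 24 cells, a ratio of 2.86 (1.79 to 4.74). At 2 months the mural counts were 13 and 26.

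Of 18 suture mesenchyme genes 14 were higher and 0 lower (median log2 ratio 3.28), against a median of −0.02 for the 15 measured at 2 months. The 11 mural genes had 9 higher and 1 lower (3.23), the 11 Schwann genes 10 higher and 0 lower (3.32) and the 13 endothelial genes 11 higher and 1 lower (1.19). CAR cell genes were 11 higher and 0 lower of 16 (1.06) over all cells. When the classes were weighted to 1 common make-up, the CAR median became −0.50, so its sign depended on the shares of the classes. Immunoglobulin genes went the other way, with 0 higher and 8 lower of 16 (−0.51), and the 10 genes lowest near the suture were immunoglobulin variable genes found in 1 to 15 cells far from it. Oxidative phosphorylation genes, a housekeeping group, had 0 of 43 called.

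Cells in no gate held most of the vessel and nerve signal. Here 13.9% of 13203 genes were higher and 3.01% lower, with a median of 0.13. Myl9, the light chain of smooth muscle myosin, had 2650 UMIs in 72 cells near the suture and none far from it, at least 826-fold higher. Acta2, smooth muscle actin, stood at 523 against 4.35 CPM, where 40 distant cells each had few UMIs, and Des, the muscle filament desmin, had 300 UMIs against 0. Of 11 mural genes 9 were higher, while the pericyte channel genes Abcc9 and Kcnj8 were lower, at 9.90 against 20.8 and 2.50 against 5.94 CPM. The Schwann list was higher in 9 of 9 (4.35), with S100b, a glial calcium-binding protein, at 15.1 against 0.297 CPM. Of 13 endothelial genes 11 were higher and 1 lower, with a median of 1.30, or 0.51 with no upper limit on genes per cell. Vwf, the clotting factor of larger vessels, stood at 85.6 against 10.0 CPM (8.56, 6.97 to 10.6) and Flt1, a VEGF receptor, at 165 against 40.5 CPM. Stab2, a scavenger receptor of marrow sinusoids, was the exception at 7.68 against 18.9 CPM (0.406, 0.310 to 0.528).

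Macrophage genes of the ungated cells were also higher near the suture, in 7 of 13 with 0 lower (0.59). C1qa, a complement subunit, stood at 349 against 222 CPM, Mertk, a receptor for engulfing dying cells, at 36.3 against 15.7 CPM, and Cd163, the haemoglobin scavenger receptor, at 9.25 against 3.07 CPM. The counts with 10 or more macrophage marker UMIs were 130 and 80 cells, a ratio of 1.49 (1.12 to 1.99).

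Neutrophils, the most frequent class in both libraries, were nearly alike in their mature programme. Of 10691 genes, 5.97% were higher and 2.7% lower, with a median of 0.04. Of 18 mature neutrophil genes 0 were higher or lower (−0.01), and of 18 activation genes likewise 0 (−0.09). Retnlg, a secreted protein of mature neutrophils, stood at 19431 and 19325 CPM, and Il1b, the cytokine interleukin 1 beta, at 3878 and 3801 CPM. The gating genes S100a8 and S100a9 stood at 73221 against 63858 and 89791 against 81433 CPM. Secondary granule genes, made by immature neutrophils, were 3 higher and 0 lower of 16 (0.23). These were Ltf (lactoferrin) at 1004 against 451 CPM (2.23, 2.16 to 2.30), Ngp at 3280 against 1818 CPM (1.80, 1.78 to 1.83) and the chitinase-like gene Chil3 at 834 against 453 CPM. Camp, the cathelicidin precursor, stood just under the limit at 4274 against 2850 CPM. S phase genes were 8 higher and 0 lower of 28 (0.41) and G2/M genes 4 higher and 0 lower of 30 (0.26). Cells rich in granule transcripts and with Mki67 and Top2a were 3.38% (2.85 to 3.97) of neutrophils near the suture and 2.44% (1.98 to 2.97) far from it. At 2 months the same lists had medians of 1.04 for granule genes, 1.42 for S phase and −1.31 for activation genes, so the sites were closer at 18 months by these medians. NF-kB target genes had 0 of 16 called and a median of −0.36, with the feedback inhibitor Nfkbia at 1460 against 1870 CPM (0.781, 0.767 to 0.796).

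The neutrophil genes with the largest ratios were genes of other cells. Mgp, matrix Gla protein of stroma, stood at 70.0 against 2.27 CPM (30.9, 21.2 to 46.7) and was seen in 173 against 27 neutrophils. Lum had 102 UMIs in 57 cells and none far from the suture, at least 27.9-fold higher. Dcn had 155 of its 357 UMIs in 1 cell. Haemoglobin followed, with 8 of 9 erythroid genes higher (1.93) and Hbb-bs, an adult beta globin, at 544 against 143 CPM. Without the cells in 2 gates and the highest doublet scores, Mgp stood at a ratio of 14.2 (9.31 to 22.6) and Hbb-bs at 3.11 (2.95 to 3.28). Stromal cells and haemoglobin transcripts were thus more frequent in the same library, and their part in these neutrophil values was not tested. Genes lower near the suture included Ighm at 253 against 1196 CPM, with 6792 of 14784 distant UMIs in 1 cell, and 2 genes spread over many cells, Dlg4 (a synaptic scaffold protein) at 6.90 against 21.7 CPM in 74 against 177 cells and Iqcn at 19.8 against 55.8 CPM in 239 against 465 cells.

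Monocytes near the suture carried more MHC class II transcripts. Of 11375 genes, 2.82% were higher and 3.38% lower, with a median of −0.00. Against that, 5 of 10 class II genes were higher and 1 lower, with a median of 0.61. Cd74, the invariant chain, stood at 1516 against 848 CPM (1.79, 1.74 to 1.84), H2-Aa at 503 against 300.5 CPM in 230 against 145 cells, H2-Eb1 at 320 against 172 CPM and H2-Ab1 at 425 against 250.3 CPM. Ciita, the master activator of these genes, stood at 28.1 against 15.9 CPM (1.77, 1.45 to 2.17), in 125 against 70 cells. The exception was H2-DMb2, at 3.69 against 6.10 CPM. Without the cells in 2 gates and the highest doublet scores Cd74 was at a ratio of 1.91 (1.85 to 1.96) and Ciita at 1.89 (1.53 to 2.33). The class II medians at 2 and 12 months were −0.16 and 0.03.

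Genes of other cells moved with the monocyte class. Immunoglobulin genes were 6 higher and 1 lower of 12 (0.57), naive and memory T cell genes 4 higher of 10, T cell coreceptors 2 of 2, and cytotoxic genes 4 higher and 1 lower of 12. Without the cells in 2 gates and the highest doublet scores, class II genes were 5 higher and 0 lower of 9 (0.83), immunoglobulin genes 7 higher and 1 lower of 12 (1.21), and naive and memory T cell genes 0 of 5. Dendritic cells also express class II genes, and their list was 1 higher and 0 lower of 8 (0.18) in the monocyte class. Of the cells with 10 or more UMIs of Cd209a and Siglech, 45 of 60 near the suture and 30 of 36 far from it lay in no gate. The part of the antibody transcripts and of dendritic cells in the class II values was not tested.

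Interferon-stimulated genes in monocytes were 10 higher and 0 lower of 40 (0.33), with Ifi47 at 55.9 against 29.3 CPM (1.91, 1.65 to 2.21) and Iigp1 at 13.9 against 6.41 CPM. Cxcl9 did not follow its order in CAR-led cells, standing at 9.60 against 30.7 CPM in 14 and 13 monocytes. Classical monocyte genes had 0 of 13 called, with Lyz2, lysozyme, at 18436 against 14206 CPM, and G2/M genes had 0 of 30 called (−0.31). Cx3cr1, a receptor of patrolling monocytes, stood at 249 against 174 CPM, below the 1.5-fold limit. Many of the largest monocyte ratios rested on antibody, platelet or muscle transcripts of 1 to 9 cells. Jchain, the joining chain of plasma cells, was at 258 against 47.9 CPM in 139 and 127 cells, with 792 of its 2664 UMIs in 1 cell.

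T cells were slightly more frequent near the suture and had similar identity genes. Of 7718 genes, 6.15% were higher and 4.21% lower, with a median of 0.09. Naive and memory genes had 0 of 10 called (0.12), and Tcf7, a transcription factor of naive and stem-like T cells, stood at 315 and 237 CPM. Cytotoxic genes had 2 higher and 0 lower of 17 (0.28). The chemokine gene Ccl5 stood at 4193 and 3100 CPM and the granule gene Nkg7 at 673 and 505 CPM, both under 1.5-fold. The granule protease gene Gzma was higher, at 28.8 against 3.25 CPM (8.85, 3.87 to 24.9), on 72 and 6 UMIs. The exhaustion-related transcription factor genes Tox and Eomes were close, at 111 and 101 CPM and at 128 and 132 CPM. At 1000 UMIs a cell, Cd4 alone was detected in 5.99% and 5.65% of T cells and Cd8 alone in 25% and 23.7%, against 13.3% and 10.9% and 48.7% and 47.9% without thinning. Icos, a costimulatory receptor, was among the few called at 77.6 against 44.5 CPM (1.75, 1.34 to 2.29), in 91 against 55 cells. Iigp1 stood at 26.0 against 4.34 CPM (5.99, 2.87 to 14.5), in 32 against 7 cells, whereas the interferon list had 1 higher and 5 lower of 31 (−0.03). Neutrophil and basophil transcripts also differed between sites in the T cell class. Secondary granule genes were 6 higher and 2 lower of 15 (0.41), with Camp at 683 against 29.8 CPM and 857 of its 1706 UMIs near the suture in 1 cell (53.3 against 19.9 CPM without the cells in 2 gates), while mature neutrophil genes were 0 higher and 8 lower of 18 (−0.54). Mcpt8, a basophil protease, stood at 138 against 4.34 CPM, with 329 of 344 UMIs in 1 cell. Igfbp3 had 140 UMIs in 1 cell and none far from the suture. Without the cells in 2 gates and the highest doublet scores, granule genes were 5 higher and 1 lower of 9 and mature neutrophil genes 0 higher and 3 lower of 8, and the interferon list went from 1 higher and 5 lower to 2 higher and 0 lower of 23. Antibody genes had 0 higher and 9 lower of 11 (−1.50), and 10581 of 11259 Igkc UMIs near the suture and 10890 of 45060 far from it lay in 1 cell each.

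Across the classes, the same list could stand differently by site. The interferon list was at medians of 0.96 in CAR-led cells, 0.33 in monocytes, 0.16 in neutrophils and −0.03 in T cells, beside all-gene medians of 0.07, −0.00, 0.04 and 0.09. MHC class II was at 0.61 in monocytes, 0.47 in ungated cells and −0.08 in neutrophils. Whether the classes differed in these medians was not tested.

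**Figure D5:**
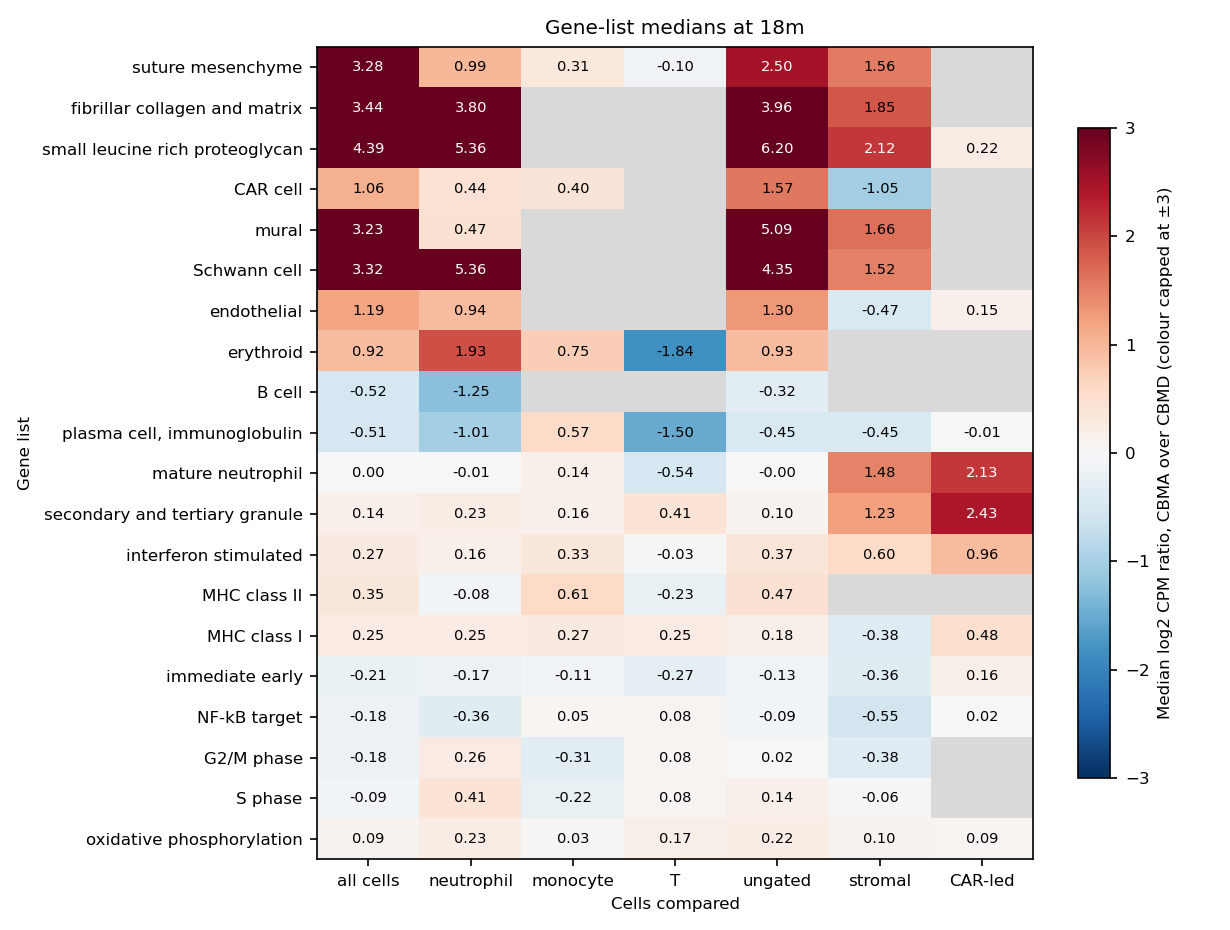
Median log2 CPM ratio at 18 months, CBMA over CBMD, of 20 gene lists (vertical) in 7 sets of cells (horizontal); colour is capped at ±3 and grey marks lists with too few measured genes or, for the CAR, suture and matrix lists in CAR-led cells, genes that chose the cells. Over all cells the matrix and suture lists stand at 3.44 and 3.28, the CAR list is −1.05 in stromal cells, and the interferon list is 0.96 in CAR-led cells.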

How the data were processed

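Single-cell RNA libraries (10x Genomics 3′) were demultiplexed, aligned to GRCm38 and counted by the authors with bcl2fastq and Cell Ranger (5.0.1 per the file headers), and the deposited values were UMI counts per gene and barcode, before limits on cells. The annotation release was not given in the sources used here. Groups came from the labels, every deposited barcode table was used, and no per-sample column was left unused. Counts were processed with Python 3.11.15, numpy 2.4.6, scipy 1.17.1, pandas 2.3.3 and scanpy 1.11.5, and figures drawn with matplotlib 3.10.9.

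UMIs were summed per library and class and scaled to CPM. Ratios of CPM and of shares had exact intervals from the conditional binomial, and shares had Clopper-Pearson intervals. The gating genes were left out of the calls of their own class. UMIs are molecules and not reads, but the intervals do not cover differences between cells of a library, mice, dissections or library preparations. The scores of stromal cells were means of log1p UMIs per 10000.

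Doublets were not removed. Scrublet's automatic threshold marked 4 and 0 cells and thus did not work, so the cells with the highest scores (0.8% per 1000 barcodes, 506 and 424 cells) were left out only in an alternative. The calls and intervals were tested on simulated sums of independent UMIs with known ratios. That simulation follows the model the intervals assume and holds no cells, so it cannot show how they behave when 1 cell holds many UMIs.

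Genes were named by rule: gating genes, the 10 genes each way with the counting interval farthest from 1, and members of the 54 gene lists with the most UMIs or an interval clear of 1. Genes given only to show that a class was alike, and those named for the share of their UMIs in 1 cell, were chosen after their values were seen. The classes, lists and tests were chosen with earlier results of these data known. Alternatives covered the gates, the limits on cells and on UMIs per gene, scaling, thinning, doublets and the richest cell of each gene. The values of some genes are not reported here.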

Additional observations from a re-analysis of the deposited data

Results flagged for a closer look

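The site ratio of several shares lay on the other side of 1 at a younger age than at 18 months. The difference across mice was not tested, and the 12-month libraries carried Xist at 564 and 596 CPM although the mice were stated to be male. The monocyte share ratio was 1.23 (1.16 to 1.31) at 2 months and 1.33 (1.14 to 1.54) at 12 months, against 0.947 at 18 months. The T cell share ratio was 0.519 (0.418 to 0.641) at 12 months, against 1.24 at 18 months and 2.40 (1.87 to 3.10) at 2 months. The stromal share ratio was 0.632 (0.323 to 1.17) at 12 months, against 4.11, with 15 and 39 cells. Within stroma, CAR-led cells stood at a ratio of 0.411 (0.137 to 1.03) at 12 months, against 2.21, and suture-led cells at 0.704 (0.117 to 3.08), against 115. The last 2 rested on 6 and 24 cells and on 3 and 7 cells at 12 months.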

How the results depend on the processing

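No paired analysis was possible because each side was 1 library and the sites shared fewer than 2 replicate numbers. The 41 recomputed share ratios stayed within the counting interval of the value reported. For suture-led cells thinned before gating, no distant cell was left and no ratio could be given. Of the gene counts 106 stayed within 1.5 times and 38 did not, mostly when the UMI minimum was changed. With at least 1 UMI, higher and lower counts were 8483 and 5218 in all cells, 6611 and 3933 in neutrophils, 4701 and 5212 in monocytes, 5032 and 3928 in T cells, 4363 and 6327 in stromal, 7614 and 4861 in ungated and 4202 and 3491 in CAR-led cells. With at least 200 UMIs they were 1121 and 203, 123 and 98, 82 and 88, 49 and 61, 375 and 205, 747 and 140, and 66 and 31 in the same order. Stromal counts were 431 and 380 after thinning and 531 and 224 with CAR-led cells only. T cells had 205 lower genes without cells in several gates. Ungated cells had 989 lower genes with no limit on genes and 612 with size factors, which moved their all-gene median by −0.12. CAR-led cells had 259 higher genes after thinning, and 798 higher and 149 lower genes without the richest cell of each gene, which takes a larger share from the smaller library.

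Of the list medians, 2304 stayed within the range set by ranks of the list's own genes around the reported median, 94 moved further and 9 reversed. The reversals were secondary granule genes in stromal cells (−0.50 with no gene limit, −0.046 without cells in several gates), mature neutrophil genes in stromal cells (−0.043 without the highest doublet scores), erythroid genes in T cells (1.45 without the richest cell), mural genes in stromal cells (−0.35 at 1 UMI), nonclassical monocyte genes in stromal cells (0.53 at 1 UMI, 1.26 without the richest cell), and CAR and osteoblast genes over all cells (−0.50 and −0.070 at 1 common make-up). Their cause was not tested. Across alternatives the interferon list in CAR-led cells ran from 0.94 to 2.03 and MHC class II in monocytes from 0.53 to 0.77. Leaving out cells in several gates and the highest doublet scores together, and several other alternatives, were chosen after seeing the data. The 54 distant stromal cells limit what can be said of stroma.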

Other observations

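Other blood cells were counted by 10 or more UMIs of fixed markers. B cells (Cd79a, Cd79b), the antibody lineage, numbered 95 near the suture and 131 far from it, a ratio of 0.664 (0.505 to 0.872), but 34 and 34 at 20 or more UMIs, a ratio of 0.916 (0.553 to 1.52). Progenitors (Mpo, Cd34, Kit) numbered 128 and 155 (0.757, 0.594 to 0.962). Their interval held 1 at 5 or more UMIs (0.904, 0.748 to 1.09) and at 20 or more (0.823, 0.599 to 1.13). There were 88 and 104 basophils (Prss34, Mcpt8; 0.775, 0.577 to 1.04). Dendritic cells (Cd209a, Siglech) numbered 60 and 36 (1.53, 0.994 to 2.38) and megakaryocytes (Pf4, Itga2b) 29 and 21. In ungated cells the mature B cell genes Cd79a and Ms4a1 stood at 120 against 180 and 44.9 against 80.0 CPM, whereas the early B cell genes Rag1, Vpreb1 and Igll1, which serve antibody gene assembly and its surrogate light chain, stood at 5.74 against 0.792, 8.79 against 5.15 and 4.26 against 1.78 CPM in 8 to 19 cells near the suture. Progenitor genes had 0 of 14 called there.

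The erythroid list over all cells had a median log2 ratio of 0.92 at 18 months, 3.30 at 2 months and −1.40 at 12 months, after red blood cell lysis at every age. The endothelial list was higher near the suture at 12 and 18 months, with medians of 1.81 and 1.19, and stood at 0.18 at 2 months. Within neutrophils, Ttr, a transport protein gene of choroid plexus and liver, had 69 UMIs in 69 cells near the suture and none far from it, at least 18.8-fold higher.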
